A study of Homo sapiens with 24 samples.

Results

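The receptor chains built around the common beta chain and the common gamma chain were followed across all 24 libraries of a study of JAK inhibitor persistence. The family was taken by gene symbol and holds CSF2RB, CSF2RA, IL3RA, IL5RA, IL2RA, IL2RB, IL2RG, IL4R, IL7R and IL21R, which are 10 of the 25082 genes in the deposited table. All 10 were present, and 9 could be judged. IL7R, with a mean normalised read count of 9.54 over the 24 libraries, was under the minimum of 10 set for judging a gene. The study measured poly(A) RNA of SET2, a cell line of megakaryoblasts established from a patient's myeloproliferative neoplasm and dependent on JAK2. Untreated SET2 cells (naive) were set beside 4 persistent lines grown continuously in a type I JAK inhibitor, which binds the active form of the kinase. The inhibitors were BMS911543, a JAK2-selective compound, CYT387 (momelotinib), INC424 (ruxolitinib) and SAR302503 (fedratinib). Naive cells were also exposed to INC424 for 4 h or 48 h, or to the vehicle DMSO for 4 h. Each of the 8 groups has 3 libraries, all from the same cell line in medium with 20% serum. The labels give no inhibitor concentrations and do not say how long the persistent lines had been in drug, whether each line was a clone, or whether replicates were separate cultures. The p-values therefore measure only the spread between these libraries.

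Receptors of this type have no kinase of their own and signal through JAK kinases bound to their tails, which activate STAT proteins. The common beta chain, CSF2RB, joins a ligand-specific alpha chain to form the receptors for GM-CSF (with CSF2RA), interleukin 3 (IL3RA) and interleukin 5 (IL5RA), and it signals mainly through JAK2 and STAT5. The common gamma chain, IL2RG, works with JAK3 and pairs with IL2RB and IL2RA, IL4R, IL7R or IL21R, whose partners in signalling include JAK1. In blood formation the beta chain receptors serve myeloid cells and the gamma chain receptors mainly lymphoid cells.

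IL2RA and IL5RA had the widest ranges over the groups and IL2RG the narrowest. IL3RA was the only 1 of the 8 members searched that had a STAT motif. The sequences upstream of these 4 members are shown. They are the 250 bases before the start site from RefSeq (GRCh38.p14), written 5′ to 3′ on the gene's strand. The windows are chr10:6062368-6062617 on the minus strand for IL2RA, chr3:3110375-3110624 on the minus strand for IL5RA, chrX:1336535-1336784 on the plus strand for IL3RA and chrX:71111578-71111827 on the minus strand for IL2RG. Capitals mark matches to a motif.
IL2RA: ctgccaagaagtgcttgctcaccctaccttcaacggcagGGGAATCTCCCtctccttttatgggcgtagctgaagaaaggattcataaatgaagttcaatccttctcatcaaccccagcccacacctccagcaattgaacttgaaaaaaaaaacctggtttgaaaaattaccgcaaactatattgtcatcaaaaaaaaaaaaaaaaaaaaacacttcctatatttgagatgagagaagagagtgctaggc
IL5RA: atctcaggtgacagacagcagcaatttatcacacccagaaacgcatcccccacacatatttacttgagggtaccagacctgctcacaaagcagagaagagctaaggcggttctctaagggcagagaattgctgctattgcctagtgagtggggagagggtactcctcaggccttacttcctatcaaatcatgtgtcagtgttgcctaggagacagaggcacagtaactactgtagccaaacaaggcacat
IL3RA: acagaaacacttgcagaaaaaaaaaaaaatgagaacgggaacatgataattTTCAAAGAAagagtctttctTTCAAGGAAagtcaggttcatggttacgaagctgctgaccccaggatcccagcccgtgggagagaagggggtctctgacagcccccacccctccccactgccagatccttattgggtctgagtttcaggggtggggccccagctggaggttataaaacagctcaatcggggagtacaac
IL2RG: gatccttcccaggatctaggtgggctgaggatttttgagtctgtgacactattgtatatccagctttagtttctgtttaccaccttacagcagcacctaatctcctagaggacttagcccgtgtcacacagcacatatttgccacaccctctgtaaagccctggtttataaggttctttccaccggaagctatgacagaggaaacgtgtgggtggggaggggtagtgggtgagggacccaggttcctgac
The 3 motifs were searched on both strands from 250 bases before to 50 after the start. They were a STAT motif (TTCNNNGAA), a GATA motif (AGATAA) and an NF-kB motif (GGGANNNNCC). Of 35116 such windows, 7.66% held the STAT motif, 10.3% the GATA motif and 25.6% the NF-kB motif. Counted from the start site, IL3RA had STAT matches at -199 and -179 and another at 12, beyond the stretch shown. IL2RA had overlapping NF-kB matches on opposite strands, at -211 and -210. CSF2RA, IL4R and IL7R had 1 NF-kB match each and IL7R also 1 GATA match. The windows of IL5RA, IL2RG and IL21R held none of these letters in that order. The table matched 8 of the 10 members, without CSF2RB and IL2RB. A match is a description of the letters and not a binding site.

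The libraries held 21770721 to 36160750 reads assigned to genes. Of 10 megakaryocyte markers 9 were in the table. ITGA2B, the platelet integrin chain that defines the lineage, averaged 75194 and was at 41778 or more in every library, while the platelet factor gene PF4 was at 0 in 17 libraries. CYT387 persistent library 2 stood apart. The 10 markers of squamous epithelium and the 10 of stroma and macrophages took 0.531% and 0.106% of its reads, with no marker of either list at 0. The squamous list had 0.109% of reads in library 3 of the SAR302503 line and no more than 0.0263% in the remaining 22, and the stroma and macrophage list had no more than 0.000643% in the remaining 23. In the same library the T cell genes CD3E, LCK, CD2 and CD5 reached 187, 234, 132 and 138, against medians of 5.46, 3.63, 2.77 and 8.21 over all 24. Of the other T and NK cell markers in the table, CD8A was 48.7 (median 3.34). CD3D was 90.8 (median 29.9), below its highest value of 172 in another library. CD3G at 1.32 and NKG7 at 250 were near their medians of 0.978 and 234. Values of the receptor genes in the CYT387 line are given with and without CYT387 persistent library 2 where they differ. The 8 groups were fitted together, so leaving it out changes the errors of comparisons it has no place in.

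**Figure D1:**
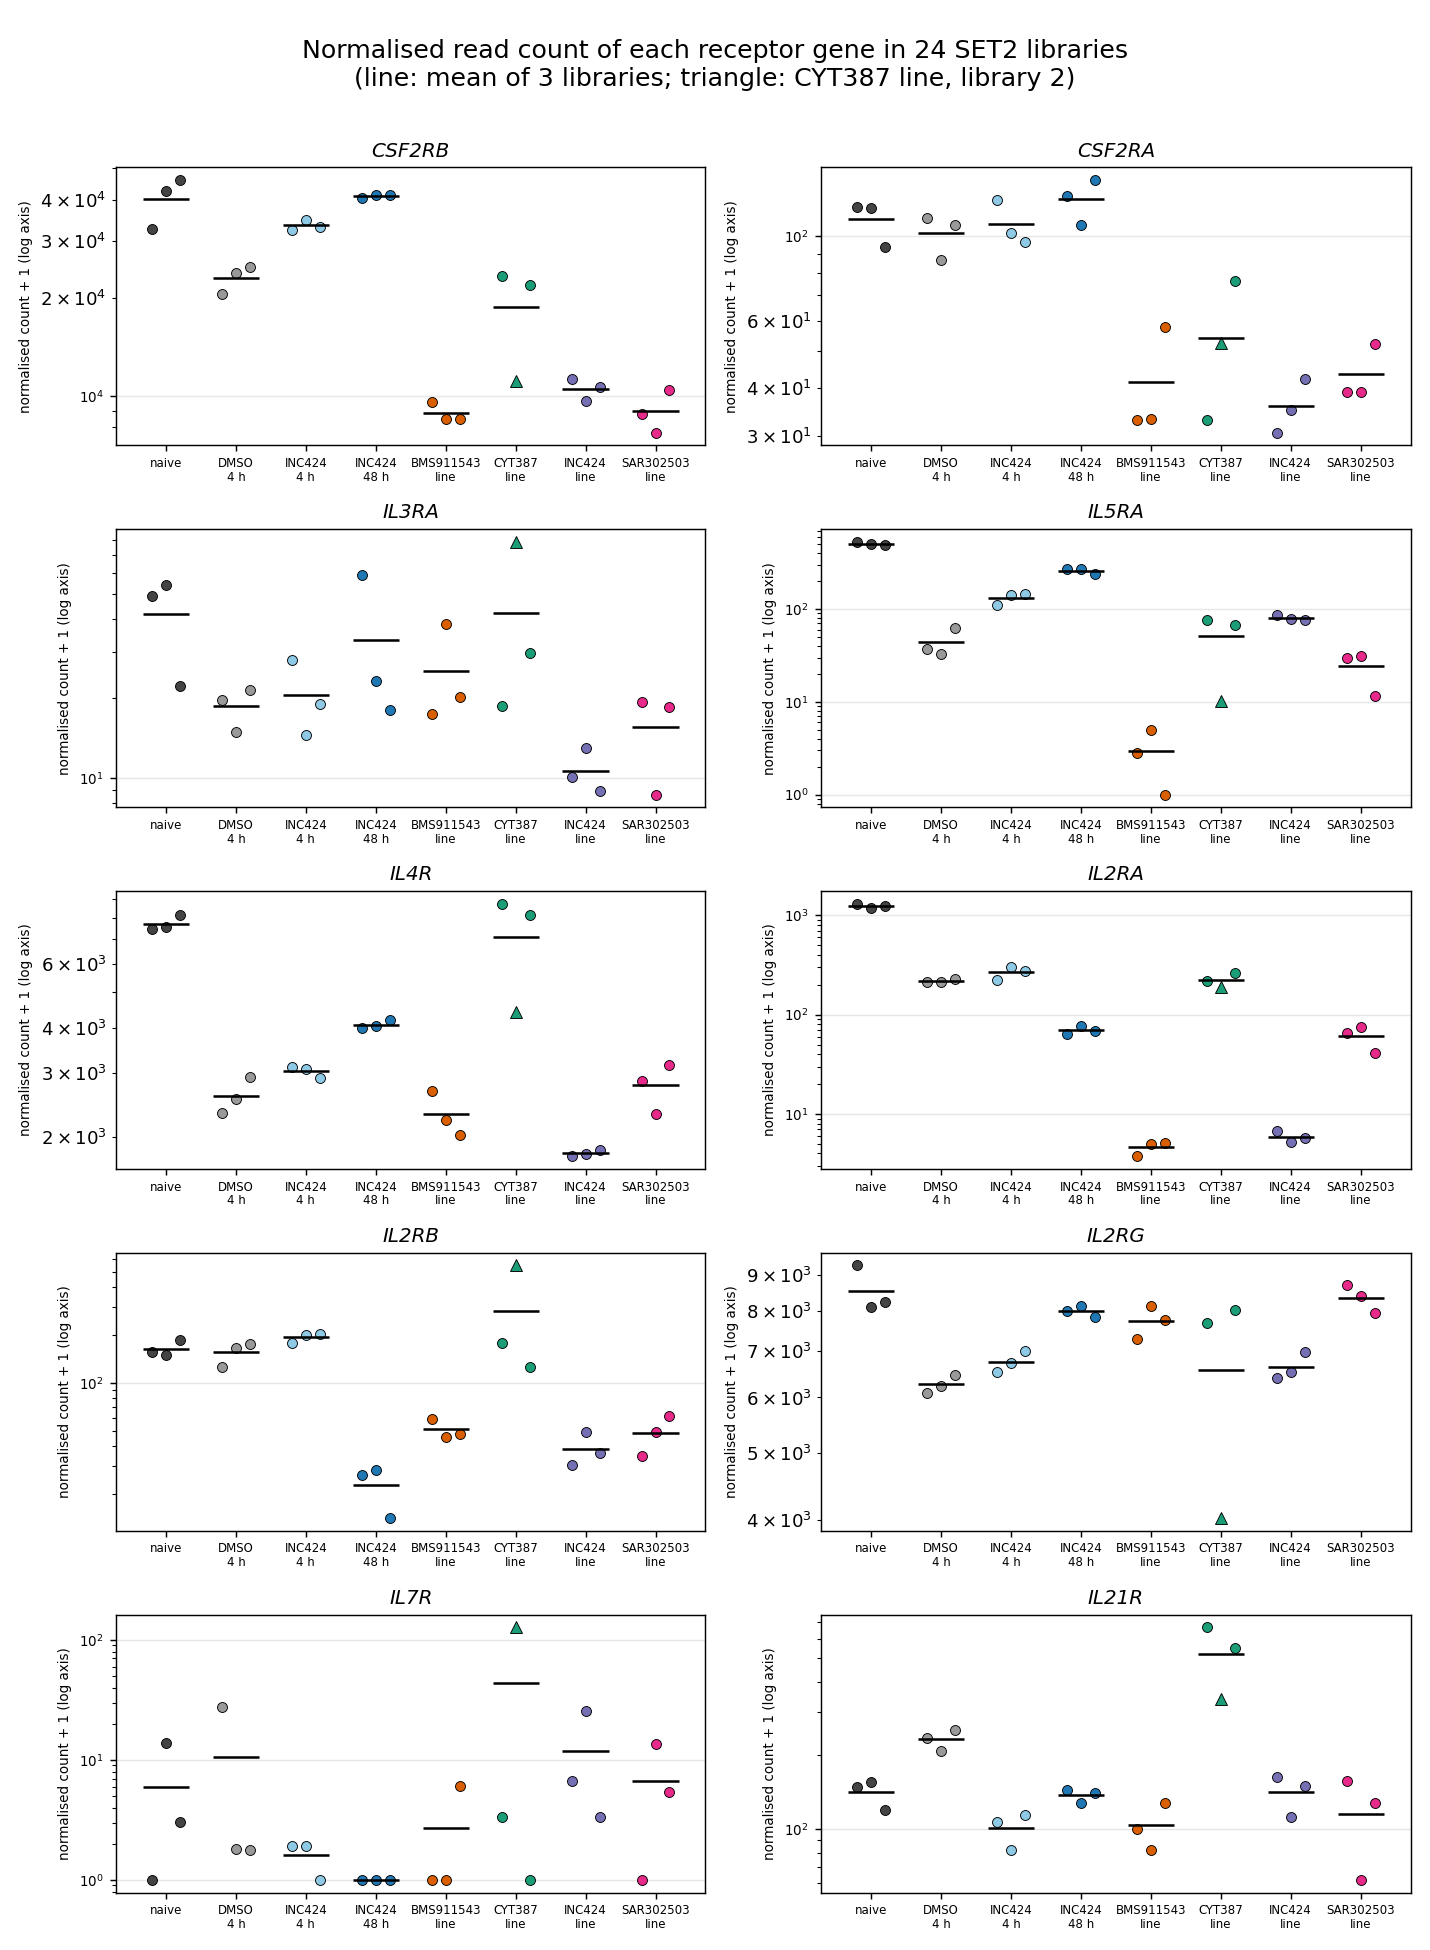
Each panel shows 1 receptor gene, with the normalised read count plus 1 on a log axis for the 3 libraries of each of the 8 groups, a line at the group mean, and a triangle for CYT387 persistent library 2. CSF2RB sits between 7690.3 and 11235 in all libraries of the BMS911543, INC424 and SAR302503 lines and between 32509 and 46014 in naive cells, while IL2RG stays between 4022 and 9286 in all 24.

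Most of the family was lower in the persistent lines than in naive cells. In the mean of the 4 lines against naive cells, 6 of the 10 members fell and 0 rose. Of the 20154 tested genes, 12.0% fell and 9.79% rose (limma, adjusted p under 0.05). The members' median log2 difference was -1.33, and that of all tested genes was 0.01. The fallen members were IL2RA (log2 -5.69), IL5RA (log2 -4.65), CSF2RB (log2 -1.86), CSF2RA (log2 -1.39), IL4R (log2 -1.38) and IL2RB (log2 -1.28). Without CYT387 persistent library 2 IL3RA fell too (log2 -1.18, against -1.04 with all libraries). IL2RG and IL21R were not called, at log2 -0.24 (SE 0.13) and 0.24 (SE 0.23).

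Each of the 4 lines had 5 to 7 members called against naive cells. In the BMS911543 line 6 members fell and 0 rose, where 14.2% of all tested genes fell and 10.4% rose. In the INC424 line 7 fell and 0 rose, against 12.5% and 9.95% of all genes, and in the SAR302503 line 6 fell and 0 rose, against 10.6% and 8.70%. In the CYT387 line 4 fell and 1 rose, against 11.1% and 11.2%, and the same numbers were found without its library 2. The fallen members common to the 4 lines were CSF2RB, CSF2RA, IL5RA and IL2RA. With the compared groups alone 1 fell and 1 rose in the CYT387 line, where IL2RA kept its call and CSF2RB, CSF2RA and IL5RA lost theirs.

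**Figure D2:**
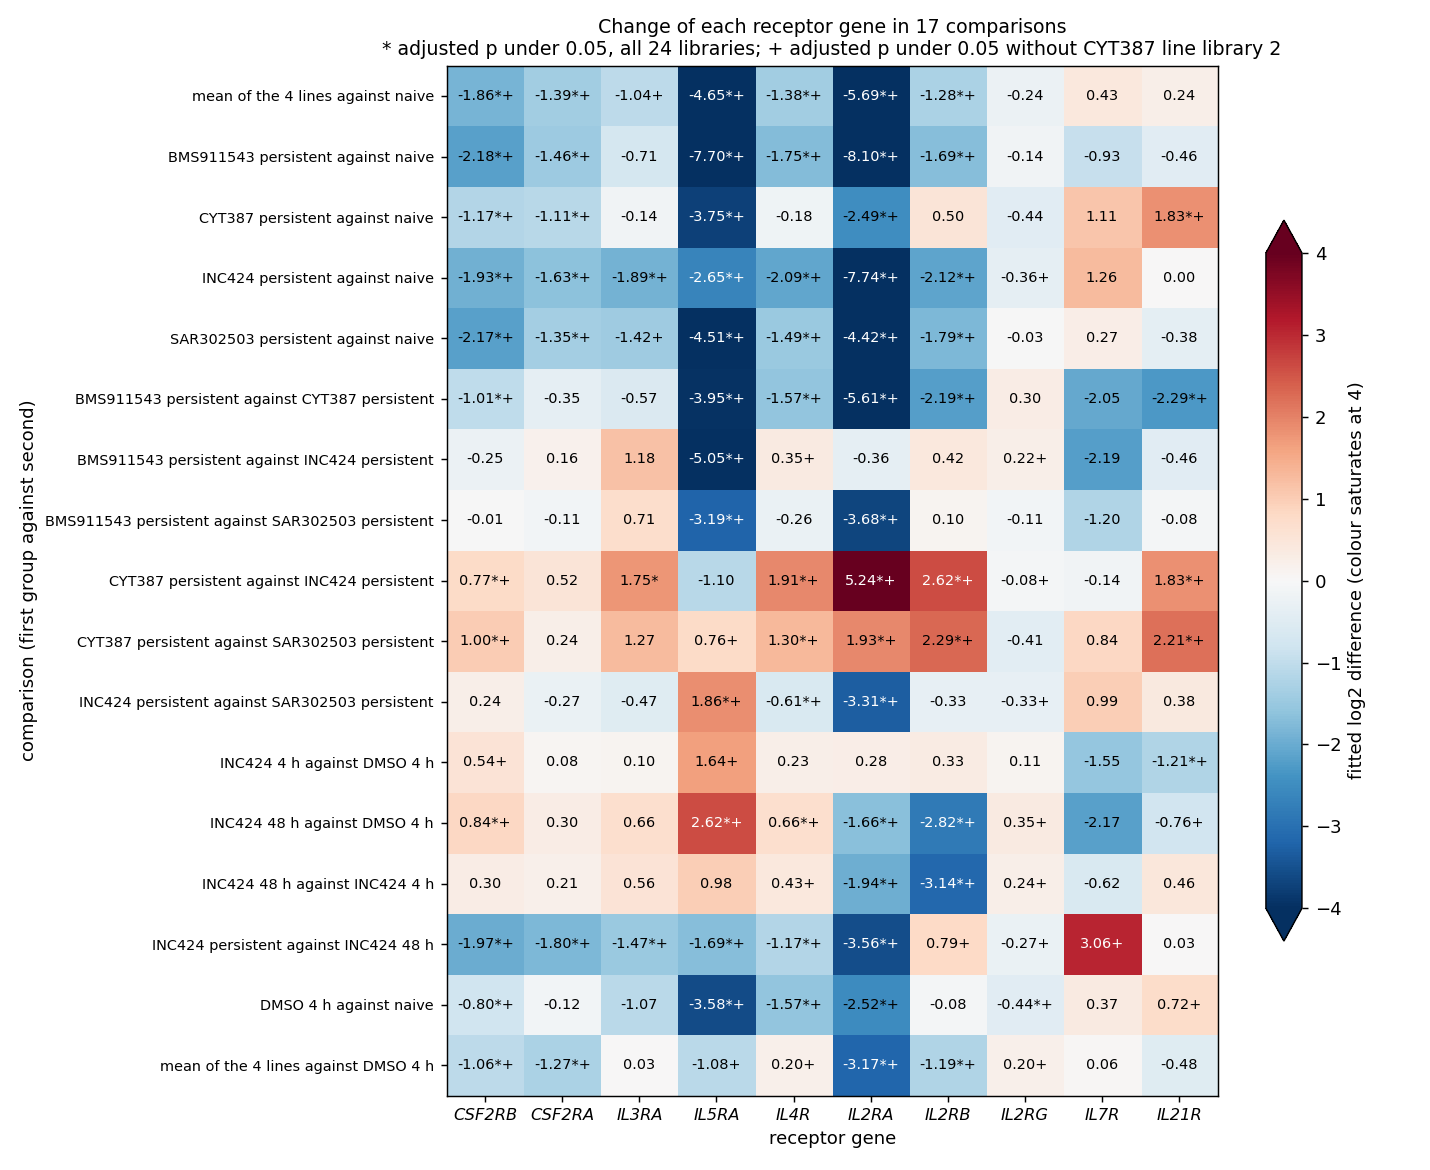
Each cell gives the fitted log2 difference of 1 receptor gene (columns) in 1 of 17 comparisons (rows, first group against second), with an asterisk where the adjusted p was under 0.05 with all 24 libraries and a plus where it was so without CYT387 persistent library 2. The columns of CSF2RB, IL5RA and IL2RA are blue for all 4 lines against naive cells, while IL2RG stays within 0.44 of 0 in every row.

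CSF2RB, the signalling chain shared by the GM-CSF, interleukin 3 and interleukin 5 receptors, was the most abundant member. Its normalised read count was 32509, 42676 and 46014 in the naive libraries. It was 9546, 8504 and 8512 in the BMS911543 line, 11235, 9620.4 and 10646 in the INC424 line, and 8794, 7690.3 and 10412 in the SAR302503 line. Every library of these 3 lines was lower than every naive library, and the lines lay close together. The CYT387 line had 23384, 11064 and 21858, where the low value is library 2. The log2 difference from naive was -2.18 (SE 0.20, adjusted p = 1.8e-08) for BMS911543, -1.93 (adjusted p = 1.1e-07) for INC424 and -2.17 (adjusted p = 3.3e-08) for SAR302503. For CYT387 it was -1.17 (adjusted p = 0.00019), and -0.82 without library 2. The CYT387 line had more CSF2RB RNA than the INC424 line (log2 0.77, and 1.11 without library 2) and the SAR302503 line (log2 1.00, and 1.35 without it), and the BMS911543 line had less than CYT387 (log2 -1.01, and -1.35 without it), each called. None of these CYT387 calls was made when only the compared groups entered the fit.

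Across the 8 groups the order of CSF2RB was INC424 48 h (41139.7), naive (40399.7), INC424 4 h (33419.9), DMSO 4 h (23085), CYT387 (18768), INC424 line (10500.4), SAR302503 (8965) and BMS911543 (8854). The library ranges of neighbours in this order overlapped except between INC424 4 h and DMSO. DMSO-treated cells had 20617, 23759 and 24879, all lower than any naive library, so naive and vehicle cells did not give the same reference level. Set against DMSO, the mean of the lines was lower by log2 -1.06 (SE 0.15, adjusted p = 1.6e-05).

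CSF2RA, the GM-CSF binding alpha chain, was low and fell in all 4 lines. Naive libraries had 118, 118 and 92.7. The BMS911543 line had 31.9, 32.2 and 56.9, the CYT387 line 32.0, 51.3 and 75.4, the INC424 line 29.5, 34.1 and 41.2, and the SAR302503 line 38.0, 38.1 and 51.1. No library of a persistent line reached the lowest naive library. The log2 differences were -1.46, -1.11, -1.63 and -1.35 in that order, with SE 0.30 and adjusted p = 0.00097, 0.012, 0.00034 and 0.0027. The CYT387 call was lost in the fit of the compared groups alone and without CYT387 persistent library 1 (log2 -0.80), and the value was -1.13 without library 2. CSF2RA was 111, 85.4 and 106 with DMSO, so the lines also fell against the vehicle (log2 -1.27, adjusted p = 0.0003). All 12 untreated or briefly treated libraries lay between 85.4 and 139, and no change was called among those groups. CSF2RA and IL3RA are neighbours in the pseudoautosomal region that chromosomes X and Y share, and how reads on identical copies were assigned is not given in the sources used here.

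IL3RA, the interleukin 3 binding alpha chain, was among the least expressed judged members and varied widely between replicates. Naive libraries had 48.1, 52.8 and 21.4, and the INC424 line 9.07, 11.9 and 7.92. That line was the only one called, at log2 -1.89 (SE 0.55, adjusted p = 0.016), with no overlap between the groups. The call was lost without naive library 1 (log2 -1.72), naive library 2 (log2 -1.66) or INC424 persistent library 3 (log2 -1.77). The SAR302503 line had 18.4, 7.62 and 17.6 (log2 -1.42, adjusted p = 0.078), and it was called without CYT387 persistent library 2 (log2 -1.42) or naive library 3 (log2 -1.81). The BMS911543 line had 16.4, 37.2 and 19.3 and the CYT387 line 17.8, 77.7 and 28.7, where both overlapped naive cells. The high value is CYT387 library 2, 3.34 times the mean of the line's other libraries. The ranges of all neighbours in the order of group means overlapped.

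IL5RA, the interleukin 5 binding alpha chain known from eosinophils and basophils, had one of the widest ranges of the family. Naive libraries had 527, 499 and 484. The BMS911543 line had 1.82, 4.03 and 0, which were 2, 4 and 0 reads. The INC424 line had 86.2, 76.6 and 75.3, the SAR302503 line 28.8, 30.5 and 10.6, and the CYT387 line 74.6, 9.22 and 66.9 with library 2 lowest. All 12 libraries of the lines were lower than any naive library. The log2 difference was -7.70 (SE 0.59, adjusted p = 1.7e-09) for BMS911543, -4.51 (adjusted p = 7.9e-06) for SAR302503, -3.75 (adjusted p = 0.0001) for CYT387 and -2.65 (adjusted p = 0.002) for INC424. The CYT387 value was -2.81 without library 2, and its call was lost in the fit of the compared groups alone. With 6 reads in 3 libraries, the size of the BMS911543 change depends on the pseudocount of 1 and on counting error. DMSO cells had 35.8, 32.0 and 60.9, within the range of the lines, and the mean of the lines was not called against DMSO (log2 -1.08, SE 0.47, adjusted p = 0.082). It was called there by DESeq2 (log2 -1.06), without BMS911543 persistent library 2 (log2 -1.21) and without CYT387 persistent library 1 (log2 -1.20), 2 (log2 -0.84) or 3 (log2 -1.18). All libraries of the BMS911543 and SAR302503 lines were below all DMSO libraries, and all INC424 persistent libraries were above them. A list of eosinophil, basophil and mast cell markers, 7 of 10 in the table and with most of its reads on HDC, varied over the groups as well. It took 0.323% to 0.655% of reads in naive cells, 0.375% to 0.380% with DMSO, 0.417% to 0.429% and 0.655% to 0.6996% after 4 h and 48 h of INC424. In the lines it took 0.234% to 0.269% (BMS911543), 0.174% to 0.455% (CYT387), 0.226% to 0.239% (INC424) and 0.325% to 0.336% (SAR302503). No marker of the list in the table was at 0 in all libraries of a group, and its part in the IL5RA values was not tested.

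IL2RG, the common gamma chain, was the steadiest member. Naive libraries had 9286, 8084 and 8222, and the 4 lines lay between 6390.3 and 8718 apart from CYT387 library 2 at 4022. The log2 differences from naive were -0.14 for BMS911543, -0.44 for CYT387, -0.36 for INC424 and -0.03 for SAR302503, with SE 0.16 and none called. Without CYT387 persistent library 2 the INC424 line was called (log2 -0.36), and the CYT387 difference was -0.12. Leaving out CYT387 library 1 or 3 instead called the CYT387 line (log2 -0.58 and -0.62). The only call with all libraries was DMSO against naive (log2 -0.44, adjusted p = 0.048). DMSO had 6094, 6240.1 and 6467, all lower than naive. The call was lost in each fit without 1 of the 6 libraries compared (log2 -0.38 to -0.48). The family thus held both a shared chain that fell in all lines, CSF2RB, and a shared chain whose group means spanned log2 0.44.

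IL2RA, the interleukin 2 binding alpha chain (CD25), had the largest differences. Naive libraries had 1309, 1186 and 1254. The BMS911543 line had 2.74, 4.03 and 4.07 (3, 4 and 4 reads), and the INC424 line 5.67, 4.26 and 4.75 (5, 5 and 6 reads). The SAR302503 line had 64.5, 73.7 and 39.6, and the CYT387 line 217, 191 and 262. These ranges do not overlap with naive cells, and the lines formed 3 levels, with BMS911543 and INC424 near the limit of detection. The log2 difference was -8.10 (SE 0.25, adjusted p = 2.4e-16) for BMS911543, -7.74 (adjusted p = 4.7e-16) for INC424, -4.42 (adjusted p = 1.6e-11) for SAR302503 and -2.49 (adjusted p = 2.1e-07) for CYT387, where it was -2.38 without library 2. BMS911543 and INC424 were not called as different (log2 -0.36, SE 0.25). DMSO cells had 213, 214 and 226, in the range of the CYT387 line, and the mean of the lines was lower than DMSO by log2 -3.17 (SE 0.20, adjusted p = 6.4e-11).

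IL2RB, the signalling chain of the interleukin 2 and interleukin 15 receptors, fell in 3 lines. Naive libraries had 155, 149 and 185. The BMS911543 line had 58.4, 44.3 and 46.8, the INC424 line 29.5, 47.7 and 34.9, and the SAR302503 line 33.4, 48.3 and 60.8, all lower than naive. The log2 differences were -1.69, -2.12 and -1.79, with SE 0.40 and adjusted p = 0.0028, 0.00035 and 0.0024. The CYT387 line had 178, 546 and 124, where 546 is library 2. It was not called against naive (log2 0.50, SE 0.40), and the difference was -0.13 without library 2. Library 2 had 3.62 times the mean of the line's other libraries, beside high CD3E, LCK, CD2 and CD5 but not CD3G or NKG7. A list of T and NK cell markers, 8 of 10 in the table, took 0.00378% of reads in that library and 0.000202% to 0.00254% in the other 23, and its part in the IL2RB value was not tested. By group that list took 0.00166% to 0.00186% in naive cells, 0.00190% to 0.00254% with DMSO and 0.000721% to 0.000849% after 48 h of INC424. It took 0.000202% to 0.000355% in the BMS911543 line, 0.000325% to 0.000402% in the INC424 line and 0.00116% to 0.00227% in the SAR302503 line. It was thus lower than in naive cells in the BMS911543 and INC424 lines and at 48 h, where IL2RA and IL2RB were low too. CYT387 persistent libraries 1 and 3 had 0.00082% and 0.00107%, also lower than naive cells. IL2RB was 178 and 124 there, and IL2RA 217 and 262. In the SAR302503 line the list overlapped naive cells, while IL2RA and IL2RB were both lower. NKG7 had the highest mean of the list (258). The part of the list in the IL2RA and IL2RB values was not tested.

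IL4R, the alpha chain of the interleukin 4 receptor, was abundant and split the lines. Naive libraries had 7467, 7541 and 8141, and the CYT387 line 8762, 4405 and 8152, with library 2 lowest. The other lines had 2672, 2236 and 2026 (BMS911543), 1770.2, 1802 and 1847 (INC424) and 2856, 2314 and 3155 (SAR302503), all lower than any naive or CYT387 library. The log2 difference from naive was -1.75 (SE 0.18, adjusted p = 1.3e-07) for BMS911543, -2.09 (adjusted p = 7e-09) for INC424 and -1.49 (adjusted p = 2.1e-06) for SAR302503. For CYT387 it was -0.18 (adjusted p = 0.47), and 0.13 without library 2. DMSO cells had 2323, 2547 and 2930, in the range of the BMS911543 and SAR302503 lines and far from naive cells. Against DMSO the mean of the lines was not called (log2 0.20, SE 0.14), and it was called as higher without CYT387 persistent library 2 (log2 0.28).

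IL21R, the interleukin 21 receptor, was the only member that rose in a line. The CYT387 line had 667, 340 and 546, and naive cells 148, 154 and 119. All 3 CYT387 libraries were above all other 21 libraries, whose highest value was 253 in a DMSO library. The log2 difference from naive was 1.83 (SE 0.29, adjusted p = 0.00012), and 2.10 without library 2, which had 0.560 times the mean of the line's other libraries. The BMS911543 line had 99.4, 81.5 and 127, the INC424 line 162, 112 and 149 and the SAR302503 line 157, 61.0 and 127, and none was called. IL4R and IL21R are adjacent genes on chromosome 16. The antisense gene IL21R-AS1 was at 0 to 16.2, and whether strand was used in counting is not given in the sources used here.

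IL7R, the interleukin 7 receptor alpha chain, had 0 reads in 9 libraries, which allows up to 3 reads in each of them. It was at 10 or more in 5 libraries, namely 126 in CYT387 persistent library 2, 26.9 in DMSO library 1, 24.7 in INC424 persistent library 2, 12.9 in naive library 2 and 12.7 in SAR302503 persistent library 2. These come from 5 groups and the other libraries of those groups had 5.67 or less, so single libraries set its level. It entered the test through these libraries and was called by limma in none of the 17 comparisons with all libraries in the fit over the 8 groups. DESeq2 called it in INC424 48 h against DMSO and in the INC424 line against 48 h, sample quality weights in the latter and in BMS911543 against naive, and limma in the INC424 line against 48 h with the compared groups alone or without CYT387 persistent library 2. With so few reads its differences are not read further.

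**Figure D3:**
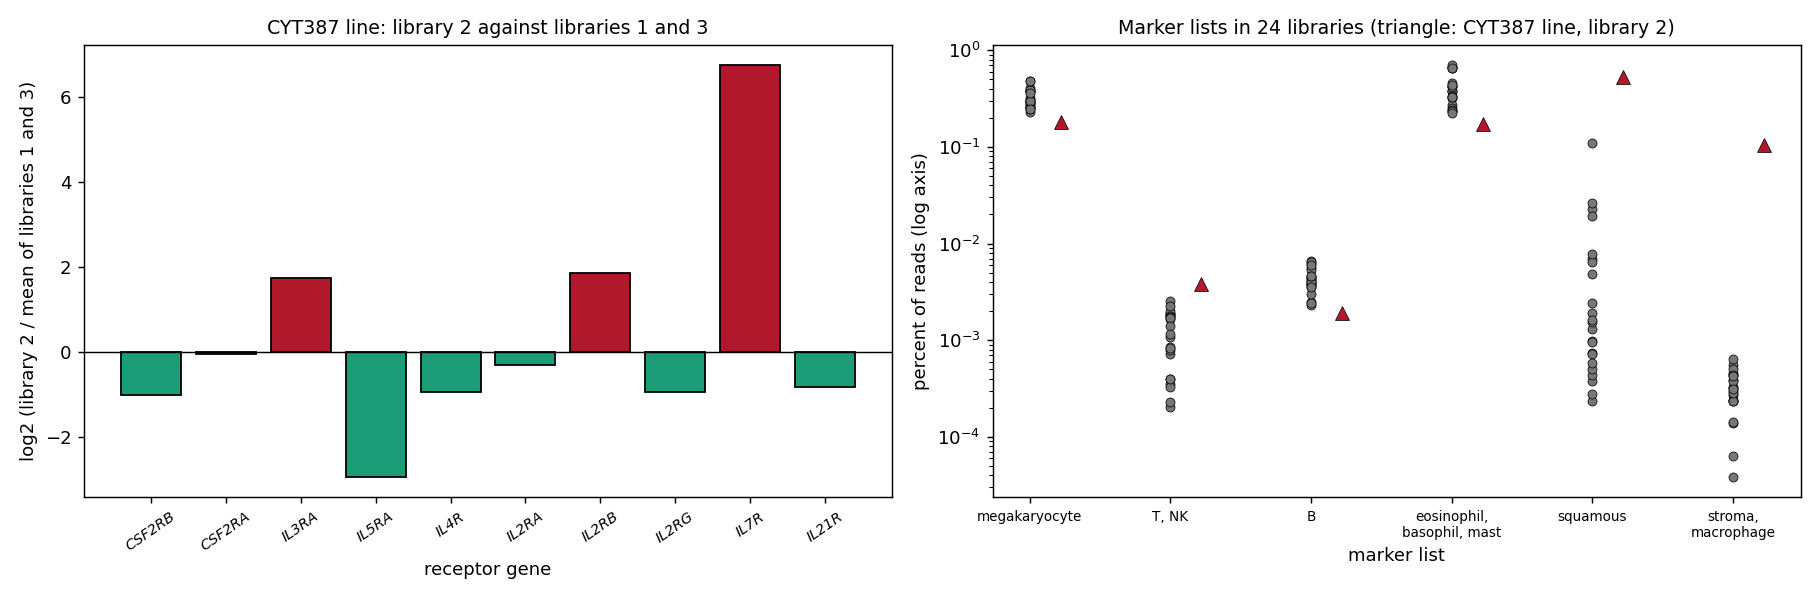
The left panel shows, for each receptor gene, the log2 ratio of CYT387 persistent library 2 to the mean of libraries 1 and 3, and the right panel the percent of reads taken by 6 marker lists in each of the 24 libraries on a log axis, with a triangle for that library. IL7R, IL2RB and IL3RA are above the line's other libraries, at 107, 3.62 and 3.34 times, and CSF2RB, IL4R and IL2RG lie near 0.489 to 0.521 times.

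The differences between lines were tested directly over the 6 pairs, in which naive cells cancel. Between BMS911543 and CYT387 6 members differed (31.4% of all tested genes), between CYT387 and INC424 6 (24.4%) and between CYT387 and SAR302503 5 (26.3%). Between BMS911543 and SAR302503 2 differed (25.5%), between INC424 and SAR302503 3 (12.7%) and between BMS911543 and INC424 1 (16.5%). The CYT387 line accounted for 17 of the 23 differences, and in all 17 it was the higher line. CSF2RB, IL4R, IL2RA, IL2RB and IL21R were higher in it than in each other line. For CYT387 against INC424 the log2 difference was 1.91 in IL4R (2.23 without library 2), 1.83 in IL21R (2.11), 2.62 in IL2RB (1.99) and 5.24 in IL2RA (5.35). Against SAR302503 it was 1.30 in IL4R (1.62), 2.21 in IL21R (2.49), 2.29 in IL2RB (1.67) and 1.93 in IL2RA (2.04). For BMS911543 against CYT387 it was -1.57 in IL4R (-1.88), -2.29 in IL21R (-2.57), -2.19 in IL2RB (-1.57), -5.61 in IL2RA (-5.71) and -3.95 in IL5RA (-4.89). All of these were called with and without library 2. With the compared groups alone the pairs gave 14 differences in place of 23. The CYT387 calls of CSF2RB, IL2RB, IL3RA and IL5RA were lost there, and those of IL4R and IL2RA against SAR302503. Without library 2, IL5RA was also called as higher than in SAR302503 (log2 1.69). IL3RA was called against INC424 (log2 1.75), but not without library 2 (log2 1.17) or without INC424 persistent library 1 or 3 (log2 1.72 and 1.63).

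Among the other 3 lines the differences were in IL2RA, IL5RA and IL4R. IL2RA was lower in BMS911543 than in SAR302503 cells (log2 -3.68, adjusted p = 2.9e-10) and lower in INC424 than in SAR302503 cells (log2 -3.31, adjusted p = 3e-09). BMS911543 cells had less IL5RA than INC424 (log2 -5.05, adjusted p = 2.8e-06) and SAR302503 cells (log2 -3.19, adjusted p = 0.00039). IL5RA was higher in INC424 than in SAR302503 cells by log2 1.86 (adjusted p = 0.042), a call lost without any 1 of the 6 libraries (log2 1.39 to 2.11). IL4R was lower in INC424 than in SAR302503 cells by log2 -0.61 (adjusted p = 0.025). That call was lost without any 1 of the 3 INC424 libraries (log2 -0.59 to -0.62) and without SAR302503 library 1 or 3 (log2 -0.58 and -0.51).

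Short exposure of naive cells to INC424 gave another pattern. After 4 h, 1 member fell and 0 rose against DMSO, where 3.49% of tested genes fell and 4.88% rose. IL21R was 105, 81.2 and 113 with INC424 and 235, 207 and 253 with DMSO (log2 -1.21, SE 0.29, adjusted p = 0.011). The groups did not overlap, but the call was lost without DMSO library 3 (log2 -1.15) or INC424 4 h library 2 (log2 -1.07). CSF2RB was 32345, 34784 and 33131 with INC424 and at most 24879 with DMSO (log2 0.54, SE 0.20, adjusted p = 0.10). IL5RA was 109, 141 and 144 with INC424 and at most 60.9 with DMSO (log2 1.64, SE 0.59, adjusted p = 0.10). In both genes the INC424 libraries were above all DMSO libraries, and both were called as higher without CYT387 persistent library 2, at the same log2 differences. The other members were not called at 4 h.

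After 48 h, 3 members rose and 2 fell against DMSO, where 17.6% of tested genes rose and 16.4% fell. Only a 4 h vehicle control was measured, so time in culture cannot be told apart from drug in this comparison. CSF2RB was 40471, 41544 and 41405 (log2 0.84, SE 0.20, adjusted p = 0.002), IL5RA 269, 269 and 238 (log2 2.62, adjusted p = 0.0016) and IL4R 4001, 4044 and 4189 (log2 0.66, adjusted p = 0.0064). All of these libraries were above all DMSO libraries. IL2RA was 62.8, 75.7 and 67.1 (log2 -1.66, SE 0.25, adjusted p = 2.1e-05), and IL2RB 25.3, 27.2 and 13.0 (log2 -2.82, SE 0.40, adjusted p = 9.8e-06). IL2RB was thus lower at 48 h than in any other group. The called members thus went in both directions, with CSF2RB, IL5RA and IL4R up and IL2RA and IL2RB down, as did the tested genes as a whole. IL5RA at 48 h (238 to 269) was still below every naive library (484 to 527). Without CYT387 persistent library 2, IL2RG was also called as higher (log2 0.35) and IL21R as lower (log2 -0.76).

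Set against 4 h of the same drug, 48 h had 2 members lower and 0 higher, where 7.69% of tested genes were lower and 7.03% higher. These were IL2RA (log2 -1.94, adjusted p = 1.5e-05) and IL2RB (log2 -3.14, adjusted p = 1.3e-05). At 4 h IL2RA had 223, 301 and 277 and IL2RB 177, 199 and 200.4, neither called against DMSO (log2 0.28 and 0.33). The fall of both chains was therefore seen at 48 h and not at 4 h, and the direct test of the 2 times was passed. Without a 48 h vehicle, longer drug exposure and longer time in culture cannot be told apart in that test either. IL4R and IL2RG were also called as higher at 48 h without CYT387 persistent library 2 (log2 0.43 and 0.24).

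**Figure D4:**
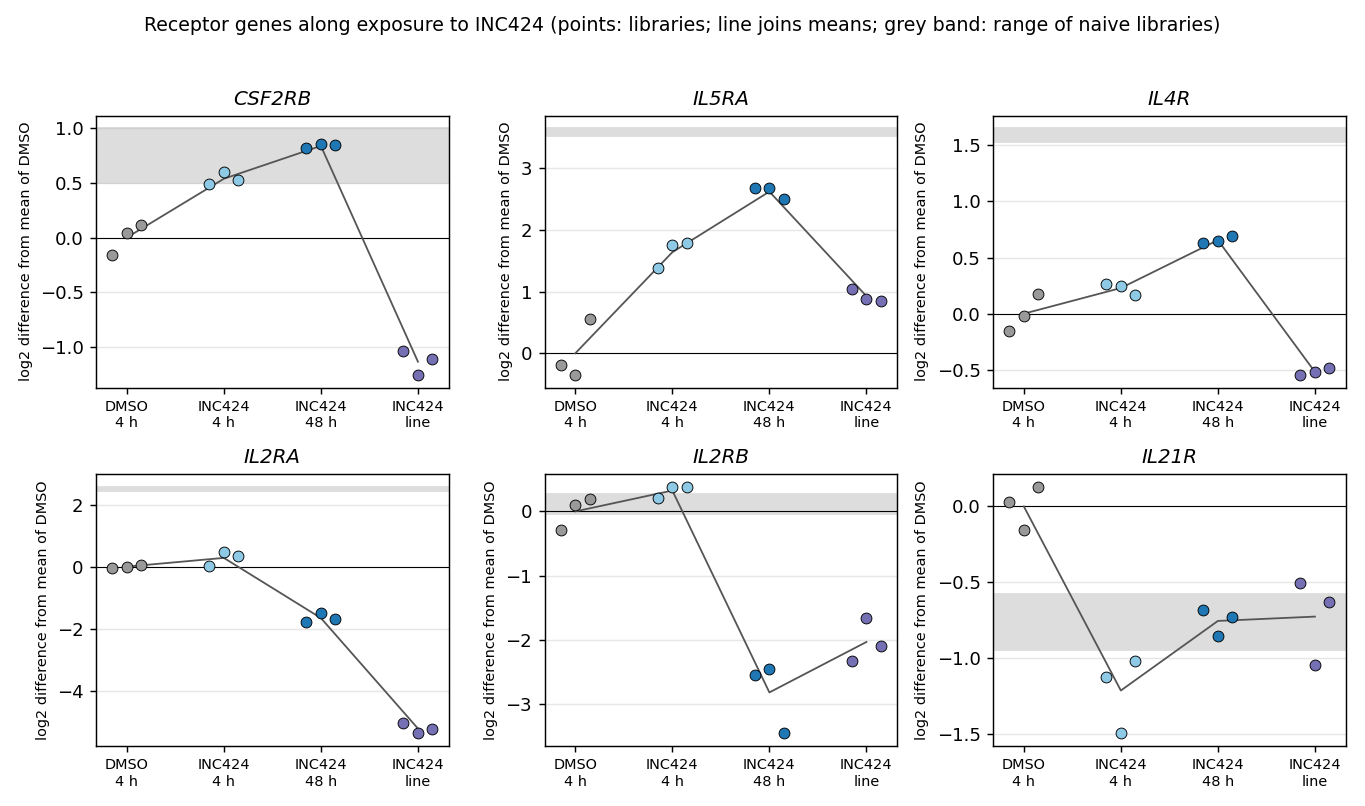
Each panel shows 1 receptor gene as the log2 difference of each library from the DMSO mean, for DMSO, INC424 for 4 h and 48 h and the INC424 persistent line, with a line through the means and a grey band for the range of the naive libraries. CSF2RB, IL5RA and IL4R are above DMSO at 48 h and lower again in the persistent line, while IL2RA is lowest in the persistent line.

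The INC424 persistent line was lower than 48 h of the same drug in 6 members and higher in 0, where 15.4% of tested genes were lower and 14.5% higher. CSF2RB differed by log2 -1.97 (adjusted p = 7.5e-08), CSF2RA by -1.80 (adjusted p = 8.6e-05), IL2RA by -3.56 (adjusted p = 3.5e-10) and IL4R by -1.17 (adjusted p = 2.5e-05). Against DMSO, CSF2RA, IL4R and CSF2RB had not fallen at 48 h, when CSF2RB and IL4R were above the vehicle. Beside naive cells, CSF2RA and CSF2RB at 48 h overlapped the naive libraries. IL4R at 48 h (4001 to 4189) was below every naive library (7467 to 8141). IL5RA (log2 -1.69, adjusted p = 0.035) lost its call without any 1 of the 6 libraries (log2 -1.66 to -1.75). IL3RA (log2 -1.47, adjusted p = 0.048) lost it without any 1 of these libraries except INC424 48 h library 3 (log2 -0.96 to -1.63). IL2RB was higher in the line by log2 0.79 (SE 0.40), called only without CYT387 persistent library 2 among the fits that left out 1 library. The same fit also called IL2RG lower (log2 -0.27).

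DMSO and naive cells, neither of which had seen an inhibitor, differed in 5 members, all lower with DMSO, where 14.6% of tested genes were lower and 11.4% higher. The largest differences were in IL5RA (log2 -3.58, adjusted p = 0.00012), IL2RA (log2 -2.52, adjusted p = 1.8e-07) and IL4R (log2 -1.57, adjusted p = 1e-06), followed by CSF2RB (log2 -0.80, adjusted p = 0.0044) and IL2RG. IL21R was higher with DMSO by log2 0.72 (adjusted p = 0.075), a call made without CYT387 persistent library 2. The labels do not say how the naive and acute samples differed in handling, and vehicle and handling cannot be told apart. Against DMSO the mean of the lines had 4 members lower and 0 higher, where 16.4% of tested genes were lower and 17.0% higher. In this mean CSF2RB, CSF2RA, IL2RA and IL2RB (log2 -1.19, adjusted p = 0.0054) were lower against both references, whereas IL4R and IL5RA were called only against naive cells. The CYT387 line by itself overlapped the DMSO libraries in 3 of these. CSF2RB was 11064 to 23384 against 20617 to 24879, IL2RA 191 to 262 against 213 to 226 and IL2RB 124 to 546 against 125 to 175. For the mean of the lines against DMSO the count was 5 lower and 2 higher without CYT387 persistent library 2, which added IL5RA as lower and IL4R and IL2RG as higher.

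Levels of different genes were compared per kilobase of exon, using the union of exons in GENCODE v29. Over the 24 libraries the normalised count per kilobase was 4628 for CSF2RB, 2663 for IL2RG and 667 for IL4R. It was 66.1 for IL2RA, 33.9 for IL21R, 25.2 for IL2RB, 20.7 for IL5RA, 19.9 for CSF2RA, 14.7 for IL3RA and 1.57 for IL7R. Both shared chains were above the ligand-specific chains they pair with, and IL4R was the closest to its shared chain. In naive cells CSF2RB stood at 8079.9 per kilobase beside 28.6 for CSF2RA. CSF2RB was lower than IL2RG per kilobase in the BMS911543 (1771 against 2797.5), INC424 (2100.1 against 2402) and SAR302503 lines (1793 against 3025), and higher in the other 5 groups.

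**Figure D5:**
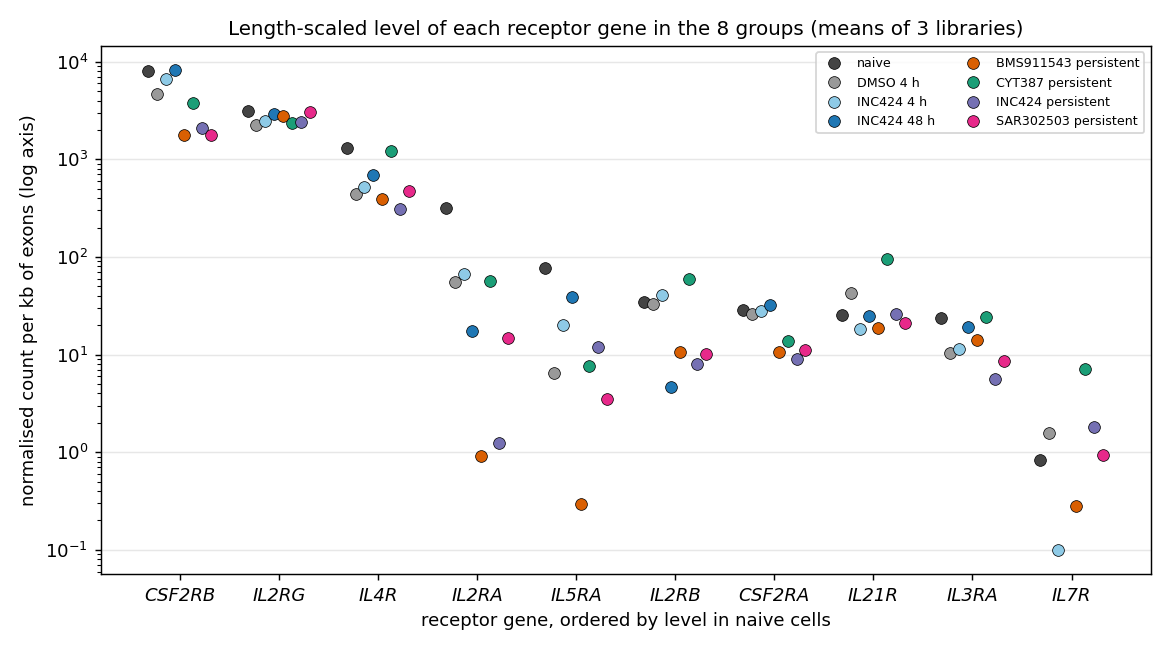
The normalised count per kilobase of exon (log axis) is shown for each receptor gene as the mean of 3 libraries in each of the 8 groups, with genes ordered by their level in naive cells. CSF2RB, IL2RG and IL4R lie above all other members in every group, and IL7R at 48 h, with 0 reads, has no point on the log axis.

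Partner chains outside the family also differed from naive cells in some of the lines. Of 5 such genes 4 were in the table and 3 tested. IL9R, the interleukin 9 binding partner of the gamma chain, was 238 ± 46.6 in naive cells (SD, n = 3). It rose to 676 ± 115 in the BMS911543 line (log2 1.51, adjusted p = 0.0077) and to 626 ± 77.4 in the INC424 line (log2 1.41, adjusted p = 0.013), and fell to 61.7 ± 20.7 in the SAR302503 line (log2 -1.97, adjusted p = 0.0011). IL13RA1, which pairs with IL4R, fell in the BMS911543 line (log2 -1.22) and rose in the SAR302503 line (log2 0.96). IL15RA, the interleukin 15 binding chain, fell in the mean of the lines (log2 -0.46) and with DMSO against naive (log2 -1.04). In the CYT387 line 0 of the 3 tested partner chains were called against naive cells, and IL9R was 602 ± 449 there (SD, n = 3). Of 11 ligand genes 3 were in the table. IL7, the ligand of IL7R, fell from 224 ± 24.6 in naive cells to 99.96 ± 18.05 in the BMS911543 line (log2 -1.17) and to 108 ± 6.87 in the INC424 line (log2 -1.04), and rose with 48 h of INC424 against DMSO (log2 0.79).

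The kinase and STAT genes that act after the receptors were described next. The median log2 difference of 10 such genes in the mean of the lines against naive was -0.04, beside 0.01 for all genes. Against naive cells JAK2 rose in the BMS911543 line (log2 0.73) and fell in the CYT387 line (log2 -0.83). Its level was 2388 ± 974 in the CYT387 line and 3958 ± 368 in naive cells (SD, n = 3). JAK1 fell in the CYT387 line as well (log2 -0.28, adjusted p = 0.048), and JAK3, the kinase of the gamma chain, was called in no line. The CYT387 values of JAK1 and JAK2 include CYT387 persistent library 2 and are not given without it, so these falls may rest on that library. Against DMSO, STAT6, the factor activated through IL4R, rose with INC424 at 4 h (log2 0.58) and 48 h (log2 1.48). STAT5B rose likewise (log2 0.67 and 1.03). STAT5B was lower with DMSO than in naive cells (log2 -1.09). Its mean was 12440 in naive cells, 5827 with DMSO, 9247 at 4 h and 11908 at 48 h. For STAT6 the means were 4918, 2580, 3848 and 7208 in the same order. Of 8 adaptor genes 1 rose and 1 fell in the mean of the lines, where 9.79% of all genes rose and 12.0% fell. GAB2, an adaptor of the beta chain receptors, fell by log2 -0.78, and IRS1 rose by log2 3.33, from 6.38 in naive cells. IRS1 spread widely between libraries (mean ± SD, n = 3). It was 36.8 ± 13.4 in the BMS911543 line, 236 ± 272 in the CYT387 line and 106 ± 69.0 in the INC424 line. In the SAR302503 line it was 64.2 ± 75.4, and with DMSO 34.7 ± 39.3.

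A list of 14 genes known to respond to STAT5 holds mostly induced genes and also BCL6, which STAT5 is known to repress. After 4 h of INC424 7 fell and 0 rose against DMSO (median log2 -0.69), where 3.49% of all genes fell and 4.88% rose. After 48 h 8 fell and 1 rose, also against DMSO (median log2 -0.88), where 16.4% of all genes fell and 17.6% rose. In the mean of the lines against naive 5 fell and 4 rose (median log2 -0.19), against 12.0% and 9.79%. Of 8 inhibitors of the pathway 5 fell and 0 rose at 4 h, 6 fell and 0 rose at 48 h, and 4 fell and 0 rose in the mean of the lines, with the same shares of all genes as background. SOCS3, a STAT-induced inhibitor of JAK signalling, fell in the BMS911543 (log2 -3.12) and INC424 lines (log2 -1.93) and rose in the SAR302503 line (log2 1.04).

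The genes most like each judged member over the 24 libraries were ranked by Pearson correlation of log2 values, among genes with a mean of at least 50. The points share their groups and library normalisation, and the values are a description. CSF2RB was most like AGAP1 (r = 0.960), CSF3R (r = 0.956) and KIT (r = 0.953), and CSF2RA like DEPTOR (r = 0.895), LMO3 (r = 0.889) and KIT (r = 0.885). IL5RA was most like MS4A3 (r = 0.922), RNF130 (r = 0.911) and FREM1 (r = 0.909). IL2RA was most like MRC2 (r = 0.959) and IL2RB like SMYD2 (r = 0.904). IL4R was most like RP11-251M1.1 (r = 0.922), followed by DFNA5 (r = 0.906) and SNN (r = 0.894). For IL21R the first was WASF3 (r = 0.871) and for IL3RA H6PD (r = 0.827). AIM2 was first for IL2RG (r = 0.911), but r was 0.794 and the rank 35 without CYT387 persistent library 2. Within the family the closest pairs were CSF2RB with CSF2RA (r = 0.86) and with IL5RA (r = 0.79), and IL4R with IL2RA (r = 0.74).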

How the data were processed

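Poly(A) RNA of SET2 cells was sequenced on Ion Proton after 16 cycles of PCR, per the labels' protocols. The deposited signal values are normalised gene counts, made by the authors with DESeq 1.10.1, HTSeq 0.5.3p3 and BWA 0.7.5.1 among the tools in the submitters' processing notes, which also list GRCh37 and hg19 without saying what each was used for. In 21 libraries the values were whole multiples of 1 step per library (100% of values within 0.01), and in 3 the step was within 0.01 of 1, which shows nothing of the scaling. The multiples were used as reads for the depths and the count tests. Depth was 21770721 to 36160750 reads on genes, and counts of 0 allow up to 3 reads, for counting error only.

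Genes at 10 or more in at least 3 libraries (20154) were fitted as log2(value + 1) with limma 3.58.1 in R 4.3.3, in 1 fit over the 8 groups of 3. Differences are on this scale, which understates changes of low genes. P-values were Benjamini-Hochberg adjusted over all tested genes in each of 17 comparisons, and a gene was called, or said to rise or fall, at an adjusted p under 0.05. Alternatives used other pseudocounts, filters and scalings, library weights, edgeR 4.0.16, DESeq2 1.42.0, a replicate block, fits of the compared groups alone and fits without each library. For the mean of the lines against naive, edgeR on these reads called 1721 risen and 2456 fallen genes, and limma 1974 and 2422. The code was tested on simulated data. All members were described. Other genes named came from pathway lists, or were the 3 with the highest correlation to a member among genes with a mean of at least 50. Some genes that these rules name are not reported here. The members and lists were chosen with earlier results of these data known.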

Additional observations from a re-analysis of the deposited data

Results flagged for a closer look

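Members whose change from naive differed between persistent lines, by the direct test of 6 pairs of lines, were IL2RA (5 pairs), IL4R and IL5RA (4 pairs each), CSF2RB, IL2RB and IL21R (3 pairs each) and IL3RA (1 pair). IL2RA and IL2RB differed between exposures to INC424, with log2 differences of -1.94 and -3.14 for 48 h against 4 h. IL3RA rested on CYT387 persistent library 2, without which its pair was not called (log2 1.17).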

How the results depend on the processing

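Over 39 settings, 3842 alternative values of the 170 member and comparison values were computed. Of these 3662 kept their direction and side of the threshold where called, 106 gained a call, 72 lost one and 2 reversed, and 111 changed sign where neither value passed. The reversed value was IL2RG in CYT387 against INC424 persistent cells, -0.08 with all libraries, 0.23 with sample quality weights and 0.24 without CYT387 persistent library 2 (range without 1 library -0.25 to 0.24). For INC424 4 h against DMSO (1 member called) the count was 2 with a pseudocount of 10, 4 with sample quality weights, 3 with the compared groups alone, 3 with DESeq2 and 3 without the 4 libraries richest in epithelial RNA. For 48 h against 4 h (2 called) it was 7 with weights, 6 with the compared groups alone and 4 without those 4 libraries. Weights gave 7 for the mean of the lines against DMSO (4 called). The compared groups alone gave 2 for CYT387 against naive (5 called) and 14 for the pairs of lines (23 called). The cause was not tested. Leaving out 1 library gave 0 to 3 for 4 h against DMSO, 2 to 4 for 48 h against 4 h, 4 to 7 for the mean of the lines against DMSO, 4 to 9 for the INC424 line against 48 h, 20 to 27 for the pairs, and 6 to 7 for the mean of the lines against naive. The 0 (limma) came without DMSO library 3 or INC424 4 h library 2, where 3 members had an unadjusted p under 0.05, and the 3, 4 and 7 without CYT387 persistent library 2.

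Same-numbered libraries did not deviate together more than libraries with different numbers. Deviations of same-numbered libraries correlated at -0.43 to 0.311 (median -0.0065) and of others at -0.316 to 0.409 (median 0.0125). These values cannot show whether same-numbered replicates were cultured or handled together. With the replicate block, 6 members were called in the mean of the lines against naive and 22 over the pairs of lines, and no count moved by over 1.5 times. Depth limits IL7R, IL3RA and the lowest values of IL5RA and IL2RA.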
